A study of Mus musculus with 12 samples.

Results

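The 9 genes examined here encode blood-forming niche factors, the signals that blood stem and progenitor cells receive from the cells around them. They were measured in whole livers of mouse fetuses with and without macroH2A1 and macroH2A2, large variants of histone H2A found in compacted chromatin. The genes are Kitl, Csf1, Flt3l, Cxcl12, Vcam1, Angpt1, Il7, Epo and Thpo. They were found by matching their symbols to the gene table of the array platform, which gave 1 probe set each for 8 of the 9, out of 19935 genes with a probe set of their own. Thpo, which encodes thrombopoietin, the hormone of platelet formation, is listed with no probe set there and was not analysed here.

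The 6 wild-type and 6 double-knockout samples were livers of male fetuses of strain 129/S6 (taconic) at 18.5 days post coitum, 1 array each. The double knockout lacks both macroH2A genes. Embryos of both genotypes were mixed and carried by wild-type recipient females. Each array was taken as 1 independent fetus, which is an assumption. No batch, litter or recipient is given in the labels, so fetuses that shared one cannot be identified, and p-values measure the spread between these 12 samples.

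Before birth the liver is the main site of blood formation, and near term blood stem cells move on to the spleen and bone marrow. Hepatocytes, stellate cells, pericytes, endothelial cells and macrophages of the liver make secreted and surface-bound factors, and blood cells carry the matching receptors. Stem cell factor (Kitl), CSF-1 (Csf1) and FLT3 ligand (Flt3l) act through receptor tyrosine kinases, CXCL12 is a chemokine that holds stem cells in place, VCAM-1 is an adhesion protein bound by integrins, and erythropoietin, thrombopoietin and interleukin-7 act through cytokine receptors that signal by JAK kinases and STAT proteins.

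None of the 8 measured niche factor genes differed between the genotypes in the test across all genes. That test was limma's moderated comparison, adjusted by Benjamini-Hochberg over the 19935 genes, and an adjusted p below 0.05 was the threshold. It called 0 of the 8, against 0.0150% of all genes (3 genes), and the lowest adjusted p among the 8 was 0.99. At unadjusted p under 0.05 the count was again 0 of 8, against 3.93% of all genes (1.28% lower and 2.64% higher in the double knockout). Without the narrower arrays that count was 1 of 8 (Epo), where 1657 of the 19935 genes passed. The exact permutation test of each gene over the 924 splits of the 12 arrays also gave 0 of 8 at unadjusted p under 0.05. Values of the 2 genotypes overlapped for all 8 genes, where 0.211% of all genes did not overlap. Means were lower in the double knockout for 5 members and higher for 3, with a median difference of -0.018 on the log2 scale beside 0.013 over all genes. In whole liver, fewer cells of a type and less RNA per cell cannot be told apart.

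Macroh2a1, one of the deleted genes, checked the labels in part. It measured 10.14 to 10.52 on the log2 scale in wild type and 9.52 to 9.67 in the double knockout, a difference of -0.77 (SE 0.058, n = 6 each; limma adjusted p = 3.5e-05), and the genotypes did not overlap. Macroh2a2, the other deleted gene, differed by -0.093 (95% interval -0.33 to 0.15; limma adjusted p = 0.99), and the sources used here do not say where its probes lie relative to the deletion.

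The arrays differed in the width of their value distribution, which bears on the members' values below. Array medians ran from 7.56 to 7.61. Wild-type replicate 6 and double-knockout replicates 3, 5 and 6 had interquartile ranges of 2.77 to 2.89, and the other 8 arrays had 2.92 to 3.02. These 4 arrays are called the narrower arrays here. Hepatocyte markers, which check the tissue, averaged 13.21 to 13.53 over 9 measured genes on the 12 arrays. Exocrine pancreas markers ranged widely, with means of 7 genes from 7.22 to 10.51 in wild type and from 7.39 to 10.52 in the double knockout. All 7 had higher means in the double knockout, with a median difference of 1.03 (1.55 without the narrower arrays) and none past the limma threshold. Their correlations with the members are among the 192 member and list relations described below, of which 0 passed adjustment. Their part in the members' values was not tested otherwise.

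Array probe sets differ in brightness for the same amount of RNA, so the members' levels were not ranked against each other. A rough floor was taken from 1193 olfactory and vomeronasal receptor genes, which are normally silent in liver and had a median of 5.41 and a 95th percentile of 6.91 (log2 value, mean over the 12 arrays). Il7, at 5.39, lay below 51.3% of them, Angpt1, at 6.06, below 23.4%, and Epo, at 6.23, below 17.9%. For these 3 genes background cannot be separated from signal, and a change in RNA would be understated. Kitl, Csf1, Flt3l, Cxcl12 and Vcam1 had means from 7.98 to 11.2, above the 95th percentile of the floor.

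**Figure D1:**
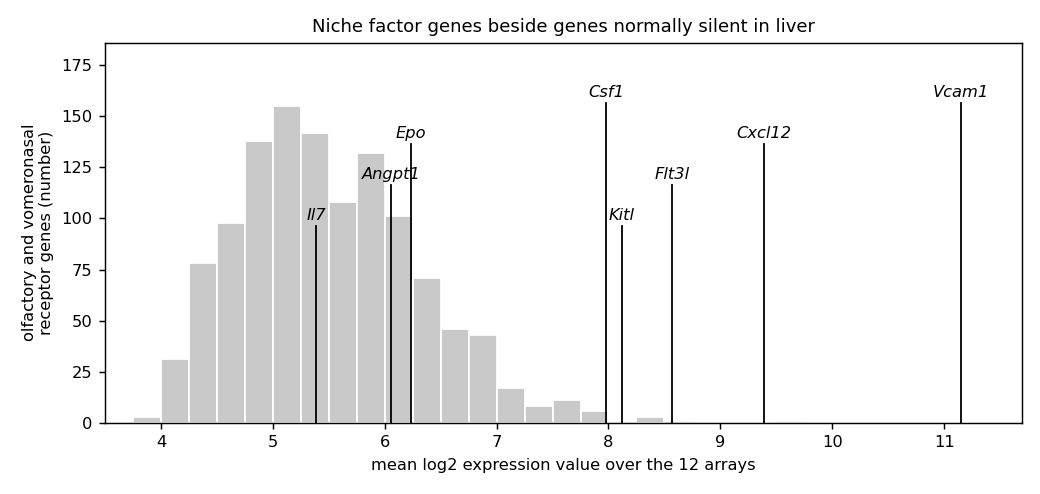
Number of olfactory and vomeronasal receptor genes (grey bars, 1193 genes, bins of 0.25) by mean log2 expression value over the 12 arrays, with the mean of each measured niche factor gene as a vertical line whose height has no meaning. Il7, Angpt1 and Epo stand inside the bulk of the grey bars, and the other 5 genes stand to the right of it.

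Promoter sequences are shown for 3 members. Epo is set below beside genes of the hypoxia response, a relation that did not pass adjustment. Csf1 varied with other members, and Cxcl12 is the niche chemokine measured above the floor. Each is the 250 bases before the annotated start site, from RefSeq (GRCm38.p6), 5′ to 3′ on the gene's strand. Windows were held there for 6 of the 9 genes (Kitl, Csf1, Flt3l, Cxcl12, Epo and Thpo). Capitals mark matches on either strand to GGGCGG, the GC box bound by Sp1-type factors, and to ACGTG or GCGTG, the core letters of the element bound by hypoxia-inducible factors. GGGCGG was in 32.7% of all 32851 windows of this length, and ACGTG or GCGTG in 38.6%.
Epo, chr5:137485817-137486066, minus strand: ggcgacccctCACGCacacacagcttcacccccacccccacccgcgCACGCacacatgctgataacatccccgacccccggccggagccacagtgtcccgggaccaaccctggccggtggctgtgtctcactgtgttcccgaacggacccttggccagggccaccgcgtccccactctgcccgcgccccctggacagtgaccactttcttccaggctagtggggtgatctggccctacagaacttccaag
Csf1, chr3:107760470-107760719, minus strand: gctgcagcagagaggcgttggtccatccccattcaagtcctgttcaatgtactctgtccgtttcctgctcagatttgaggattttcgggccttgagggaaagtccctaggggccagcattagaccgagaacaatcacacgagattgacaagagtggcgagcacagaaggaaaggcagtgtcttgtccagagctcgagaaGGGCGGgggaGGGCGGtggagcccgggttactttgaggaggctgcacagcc
Cxcl12, chr6:117168285-117168534, plus strand: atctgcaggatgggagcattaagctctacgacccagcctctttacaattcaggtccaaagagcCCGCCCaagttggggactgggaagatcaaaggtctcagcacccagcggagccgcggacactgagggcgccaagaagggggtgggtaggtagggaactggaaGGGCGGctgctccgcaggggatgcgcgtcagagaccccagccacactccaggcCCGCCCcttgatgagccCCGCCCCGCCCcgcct

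The Epo window held 2 matches to GCGTG, both on the opposite strand and starting 240 and 204 bases before the start site, and none to GGGCGG. The Csf1 window held 2 matches to GGGCGG, and the Cxcl12 window held 5, a pair of which share a base. All 3 windows were richer in CpG pairs than the median window, which had 6, with 16 in Epo, 14 in Cxcl12 and 10 in Csf1. A match is a description of the letters and was not tested as a binding site. Sequence outside these windows was not examined, so they do not show where hypoxia-inducible factors act on Epo.

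The ligands of receptor tyrosine kinases came first. Kitl encodes stem cell factor, which keeps blood stem cells and mast cells alive through the KIT receptor. On the log2 scale Kitl measured 8.04, 8.18 and 8.25 in wild type (lowest, median and highest of 6) and 7.93, 8.10 and 8.16 in the double knockout. All 6 double-knockout arrays lay below the wild-type median, but only 1 lay below the lowest wild-type array. The means were 8.16 ± 0.082 and 8.08 ± 0.085 (SD, n = 6 each), a difference of -0.079 with a 95% interval from -0.19 to 0.030 (limma adjusted p = 0.99), and -0.047 without the narrower arrays.

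Csf1 encodes the growth factor of monocytes and macrophages. It measured 7.86, 7.99 and 8.11 in wild type and 7.83, 7.96 and 8.09 in the double knockout (log2; lowest, median, highest of 6). The lowest array of each genotype was a narrower one, wild-type replicate 6 and double-knockout replicate 6. The means differed by -0.023 (95% interval -0.14 to 0.092; limma adjusted p = 0.99), and the difference was 0.012 without the 4 narrower arrays.

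Flt3l encodes FLT3 ligand, which drives early lymphoid and dendritic cell precursors. It measured 8.50, 8.59 and 8.65 in wild type and 8.46, 8.55 and 8.61 in the double knockout (log2; lowest, median, highest of 6). Flt3l had the smallest spread within genotypes of the 8 members, with 6.65% of all genes having a smaller one. The difference of -0.032 had a 95% interval from -0.12 to 0.056 (limma adjusted p = 0.99).

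Their receptors are carried by blood cells. Kit measured 8.89 to 9.24 in wild type and 8.84 to 9.08 in the double knockout, a log2 difference of -0.073 (95% interval -0.20 to 0.057). Csf1r, the CSF-1 receptor of macrophages, measured 10.44 to 10.72 and 10.40 to 10.72, a log2 difference of -0.028 (95% interval -0.16 to 0.10) that was 0.063 without the narrower arrays. Flt3, the receptor of FLT3 ligand, measured 6.88 to 7.38 and 7.16 to 7.43, a log2 difference of 0.084 (95% interval -0.084 to 0.25) that was 0.018 without wild-type replicate 6, the lowest array. None of the 3 passed the limma test (adjusted p = 0.99 each).

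Cxcl12 encodes the chemokine that retains blood stem cells in their niche. It measured 9.27, 9.45 and 9.54 in wild type and 9.14, 9.38 and 9.52 in the double knockout (log2; lowest, median, highest of 6). Among the double-knockout arrays, replicates 1, 2 and 4 measured 9.46 to 9.52, and replicates 3, 5 and 6, all narrower arrays, measured 9.18, 9.30 and 9.14, 2 of them below every wild-type array. The difference of -0.077 had a 95% interval from -0.23 to 0.079 (limma adjusted p = 0.99) and turned to 0.067 without the narrower arrays. Beside it, the mean of 13 stellate cell and pericyte markers was 8.64 to 8.76 in wild type, 8.81 to 8.85 on double-knockout replicates 1, 2 and 4 and 8.58 to 8.66 on replicates 3, 5 and 6. Over deviations from the genotype means, described below, this mean and Cxcl12 gave r = 0.70 (exact permutation p = 0.054, adjusted 0.32 over 192 relations). Spearman rho was 0.77 (permutation p = 0.045, adjusted 0.41). Without the narrower arrays r was 0.32, and whether the marker mean accounts for the Cxcl12 values was not tested.

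Cxcr4, the main receptor of CXCL12, measured 8.88 to 9.21 in wild type and 8.78 to 9.03 in the double knockout. Wild-type replicates 1 and 2 were the 2 highest arrays, at 9.20 and 9.21, and 4 double-knockout arrays lay below the lowest wild-type array. The log2 difference of -0.12 had a 95% interval from -0.26 to 0.021 (limma adjusted p = 0.99). Ackr3, which takes up CXCL12 without moving cells, measured 6.85 to 7.01 and 6.88 to 7.22, a log2 difference of 0.059 (95% interval -0.068 to 0.19). Without the narrower arrays the differences were -0.078 for Cxcr4 and 0.10 for Ackr3.

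Vcam1 encodes an adhesion protein on niche cells and macrophages. It measured 11.05, 11.12 and 11.23 in wild type and 11.09, 11.20 and 11.27 in the double knockout (log2; lowest, median, highest of 6). Above the wild-type median lay 5 of 6 double-knockout arrays, 1 of them above the highest wild-type array. The difference of 0.060 had a 95% interval from -0.031 to 0.15 (limma adjusted p = 0.99). The integrin subunits that bind VCAM-1 had log2 differences of 0.068 for Itga4 (95% interval -0.098 to 0.23), 0.030 for Itgb1 (-0.069 to 0.13) and 0.031 for Itgb7 (-0.059 to 0.12). Without the narrower arrays they were -0.053, 0.094 and 0.0059 in the same order.

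Angpt1 encodes the angiopoietin that activates the TIE2 receptor on endothelial and stem cells. It measured 5.94, 6.01 and 6.12 in wild type and 6.01, 6.05 and 6.32 in the double knockout (log2; lowest, median, highest of 6), within the range of the silent genes. All 6 double-knockout arrays lay above the wild-type median, 2 of them above every wild-type array. The difference of 0.087 had a 95% interval from -0.032 to 0.21 (limma adjusted p = 0.99), and it was 0.043 without double-knockout replicate 1, the highest array, and 0.14 without the narrower arrays. Tek, which encodes TIE2, differed by 0.040 on the log2 scale (95% interval -0.11 to 0.19), and its partner Tie1 by -0.069 (95% interval -0.19 to 0.054). Without the narrower arrays these differences were 0.15 for Tek and -0.019 for Tie1, and that of Tek was 0.0064 without double-knockout replicate 1.

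**Figure D2:**
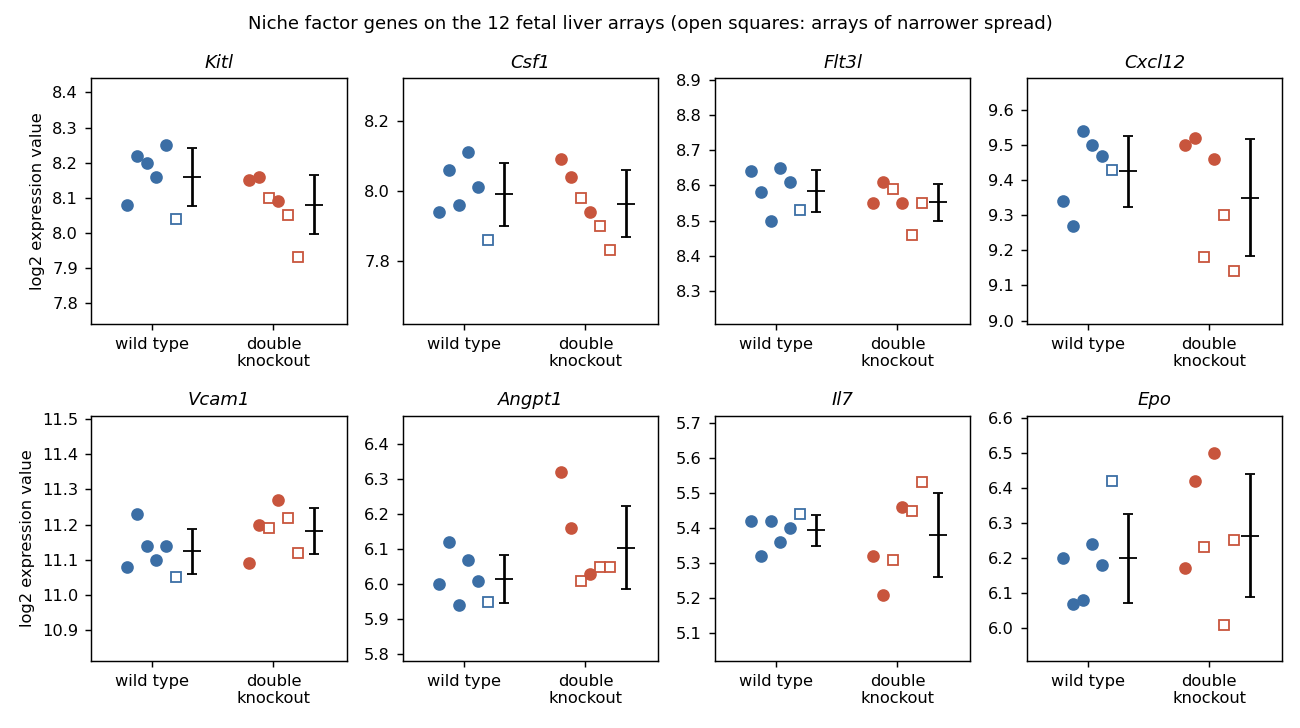
Log2 expression value of each measured niche factor gene on the 12 arrays, each panel spanning 0.7 on the log2 axis. Filled circles and open squares are single arrays, the squares being the 4 arrays of narrower spread, and bars give mean ± SD of the 6 arrays of a genotype. The genotypes overlap in all 8 panels, and the 3 lowest Cxcl12 values of the double knockout are narrower arrays.

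Il7 encodes the cytokine that B and T cell precursors need. It measured 5.32, 5.41 and 5.44 in wild type and 5.21, 5.39 and 5.53 in the double knockout (log2; lowest, median, highest of 6). Of the double-knockout arrays, 3 lay above and 3 below the wild-type range, with SDs of 0.12 and 0.043 (n = 6 each). The difference of -0.014 had a 95% interval from -0.13 to 0.10 (limma adjusted p = 0.995), for a gene whose level lay at the middle of the silent genes, and it was -0.053 without the narrower arrays.

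Il7r, the receptor chain for interleukin-7, had the lowest unadjusted p of the 12 measured receptor genes. It measured 8.10, 8.19 and 8.34 in wild type and 7.71, 7.98 and 8.17 in the double knockout (log2; lowest, median, highest of 6). All 6 double-knockout arrays lay below the wild-type median and 4 below every wild-type array. The difference was -0.245 (SE 0.082; 95% interval -0.42 to -0.070), with a limma p of 0.0094 unadjusted and 0.99 adjusted, so it did not pass. It was -0.086 without the narrower arrays, which include the 3 lowest double-knockout values. Beside it, the double knockout was lower in mean for 6 of 8 measured B cell precursor markers (4 at unadjusted limma p under 0.05), where 41.0% of all genes were lower in mean and 1.28% were lower at that p, and the median difference was -0.21. The mean of these markers was 7.77 to 7.91 in wild type and 7.53 to 7.79 in the double knockout. Their part in the Il7r values was not tested.

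Epo encodes erythropoietin, the hormone that keeps red cell precursors alive, which fetal liver makes before the kidney takes over. It measured 6.07, 6.19 and 6.42 in wild type and 6.01, 6.24 and 6.50 in the double knockout (log2; lowest, median, highest of 6). Epo had the largest spread within genotypes of the 8 members (pooled SD 0.15, larger than in 85.5% of genes). Double-knockout replicate 4 was the highest array and replicate 5 the lowest, so 1 genotype held both extremes. The difference of 0.066 had a 95% interval from -0.10 to 0.24 (limma adjusted p = 0.99). It was 0.21 without the narrower arrays (limma adjusted p = 0.48) and 0.019 without double-knockout replicate 4. Epor, the erythropoietin receptor, measured 9.41 to 10.06 in wild type and 9.66 to 10.07 in the double knockout, a log2 difference of 0.031 (95% interval -0.18 to 0.24). That difference was -0.052 without wild-type replicate 6, the lowest array, -0.012 without double-knockout replicate 3 and -0.12 without the narrower arrays.

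**Figure D3:**
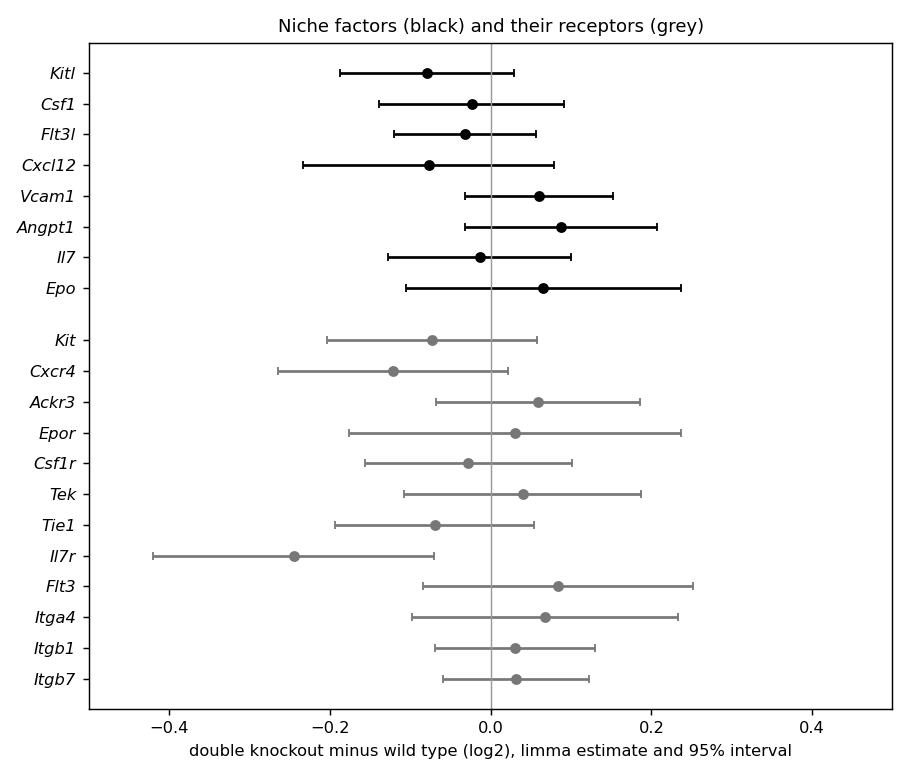
Difference in log2 expression value, double knockout minus wild type, for 8 niche factor genes (black) and 12 genes of their receptors and binding integrins (grey). Points are limma estimates and bars 95% intervals over 6 arrays per genotype. The bars of all 8 niche factors cross 0, and that of Il7r alone among the receptors lies wholly below 0.

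Across the members, the 95% intervals bound the change in array signal rather than show it to be absent. The widest lower bound was that of Cxcl12, at 0.851 of the wild-type signal, and the widest upper bound that of Epo, at 1.18 times. For Epo, Angpt1 and Il7 these bounds hold for a signal near the floor and not for RNA. For the other members, too, how far the signal follows RNA was not tested. Macroh2a1, a deleted gene measured above the floor, kept 0.586 of its wild-type signal in the double knockout.

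The remaining genes of the pathways were taken as lists by role, and 0 genes of these lists passed the limma test over all genes. The lists were chosen with earlier results of these data known, so their counts are descriptions. For all the counts of means below, 41.0% of all genes had lower means in the double knockout, and 11760 of 19935 had higher ones. The 12 measured receptor and integrin genes had 7 higher and 5 lower means and a median difference of 0.030, which was -0.0066 without the narrower arrays.

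Other secreted or adhesive niche factors were measured for 20 of 23, 12 with higher and 8 with lower means (median 0.011, but -0.0040 after quantile normalization, -0.00029 after median centring and 0.062 without the narrower arrays). The 3 of smallest p were Il11, a cytokine that supports stem cells, at 0.15 on the log2 scale, Ptn, which encodes pleiotrophin, at 0.18, and Tgfb1, a growth inhibitor of stem cells, at -0.13. Il11 and Ptn had means of 6.09 and 6.74 in wild type, under the 95th percentile of the silent genes.

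Signal carriers below the receptors had 13 of 15 measured members with lower means (median -0.045), where 41.0% of all genes had lower means. The 3 of smallest p were Stat3, which carries cytokine signals to the nucleus, at -0.14, the adaptor gene Grb2 at -0.080 and the phospholipase gene Plcg1 at -0.091. Stat3 measured 10.87 to 11.01 in wild type and 10.63 to 10.97 in the double knockout, and its difference was -0.044 without the narrower arrays, where that of Plcg1 was -0.0093.

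Feedback inhibitors had 10 of 14 members with lower means (median -0.034, but 0.049 without the narrower arrays), with the adaptor gene Dok1 at -0.17, the ubiquitin ligase gene Cbl at -0.085 and Socs1, which blocks JAK kinases, at 0.083. Cbl was at -0.056 without the narrower arrays. Proteases that shed or cut the factors had 6 of 8 members with lower means (median -0.025). The 3 of smallest p were Elane, neutrophil elastase, at -0.17, Mmp9, a matrix protease of neutrophils, at -0.24 (-0.098 without the narrower arrays), and Ctsg, cathepsin G of neutrophils, at -0.10. Beside them, 8 of 8 neutrophil markers had lower means (5 at unadjusted limma p under 0.05), where 41.0% of all genes were lower in mean and 1.28% were lower at that p. The mean of these markers was 11.40 to 11.57 in wild type and 11.29 to 11.38 in the double knockout. Their part in the protease values was not tested.

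Regulators of Epo, Thpo and Cxcl12 had 9 of 15 members with lower means (median -0.029, but 0.038 without the narrower arrays). Vhl, which marks hypoxia-inducible factors for breakdown, differed by 0.11, the nuclear receptor gene Rxra by -0.14 and Epas1, which encodes the HIF-2 alpha factor that drives Epo, by -0.17. Epas1 was lowest on double-knockout replicate 5, at 9.40, the array on which Epo and the means of several lists were also lowest. The Epas1 difference was 0.021 without the narrower arrays, where that of Rxra was -0.029 and that of Vhl 0.19. Hypoxia response genes had 10 of 12 members with higher means (median 0.042, and 0.17 without the narrower arrays), with Car9 at 0.11, Pfkfb4 at -0.076 and Pfkfb3 at 0.13 (Pfkfb4 -0.046 and Pfkfb3 0.21 without the narrower arrays). The list of erythropoietin response genes shares Stat5a with the signal carriers and Cish with the feedback inhibitors. It had 7 of 8 members with lower means (median -0.019), with Osm at -0.11, Pim1 at -0.098 and Bcl2l1 at -0.020. Without the narrower arrays these were -0.062, -0.065 and -0.096.

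How the members varied from array to array was described on deviations from the genotype means over the 12 arrays. P-values came from all 518400 orderings of the arrays within their genotype (exact permutation test, 2-sided). These orderings take no account of the replicate numbers, which carried a hint of pairing described at the end. Among the 28 pairs of members, 3 passed Benjamini-Hochberg adjustment by Pearson correlation, all with Csf1 and only narrowly, and none of these 3 passed by Spearman correlation. Csf1 and Kitl rose and fell together (Pearson r = 0.80, permutation p = 0.0038, adjusted 0.048; Spearman rho = 0.76, permutation p = 0.0087, adjusted 0.10), and r was 0.71 without the 2 arrays farthest from the median. Csf1 and Angpt1 gave r = 0.76 (permutation p = 0.0051, adjusted 0.048; rho = 0.64, permutation p = 0.040, adjusted 0.28), and 0.69 without the 2 farthest arrays. Csf1 and Il7 went in opposite directions (r = -0.78, permutation p = 0.0031, adjusted 0.048; rho = -0.78, permutation p = 0.0061, adjusted 0.10), and r was -0.74 without the 2 farthest arrays. Angpt1 and Il7 lay within the range of the silent genes, so their relations with Csf1 hold for array signal and not for RNA.

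The relations were set beside the width of the arrays' distributions. Csf1 itself correlated with the interquartile range of the array (r = 0.78, permutation p = 0.0067, adjusted 0.18 over 192 relations; rho = 0.79, permutation p = 0.0051, adjusted 0.25; r = 0.70 without the 2 farthest arrays). Over the 8 arrays left without the narrower ones, r was 0.42 for Csf1 with Kitl, 0.82 for Csf1 with Angpt1 and -0.65 for Csf1 with Il7. After quantile normalization, which gives all arrays one distribution, r was 0.78, 0.81 and -0.34 in the same order. The relation of Csf1 with Angpt1 was thus as large under both settings, that with Kitl was smaller without the narrower arrays, and that with Il7 was smaller under both. The count of passing pairs was 0 after quantile normalization, where the lowest adjusted permutation p of these 3 was 0.051 (Csf1 with Angpt1), and 0 without the narrower arrays, and it ran from 0 to 4 when 1 array was left out at a time. Leaving out wild-type replicate 3 gave 4, leaving out wild-type replicate 4 gave 1, leaving out the first double-knockout array gave 1, and leaving out any other single array gave 0.

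Each member was also set against the mean of 23 lists, the 8 role lists above and 15 lists of cell type markers, and against the array interquartile range, and 0 of these 192 relations passed adjustment, with 31 at unadjusted permutation p under 0.05. The relations share the same arrays and are not independent, and no such count was made for other genes. With the array interquartile range the members' r ran from -0.56 (Il7) to 0.78 (Csf1). Csf1 had the smallest p with the megakaryocyte and platelet markers (r = 0.82, permutation p = 0.0026, adjusted 0.18; rho = 0.88, permutation p = 0.0011, adjusted 0.22). That r was 0.82 without the 2 farthest arrays, 0.87 without the narrower ones and 0.66 after quantile normalization. Csf1 also went with receptors, signal carriers, proteases and mesothelium markers, at r = 0.80, 0.76, 0.71 and 0.61. Their permutation p ran from 0.0031 to 0.048 (adjusted 0.18 to 0.30). In the same order r was 0.75, 0.46, 0.53 and 0.55 after quantile normalization, and 0.51, 0.17, 0.21 and 0.20 without the narrower arrays. Epo had its smallest p with the intestine markers (r = 0.60, permutation p = 0.0046, adjusted 0.18; rho = 0.52, permutation p = 0.045, adjusted 0.41), a list in which wild-type replicate 6 stood far above the other arrays, and r was 0.50 without the 2 farthest arrays and 0.26 without the narrower ones. Epo also went with the 12 hypoxia response genes (r = 0.80, permutation p = 0.0057, adjusted 0.18; rho = 0.78, permutation p = 0.0077, adjusted 0.25). That relation gave r = 0.56 without the 2 farthest arrays, 0.52 without the narrower ones and 0.72 after quantile normalization. Epo also went with other lists, at r = 0.68 for stellate cell markers, 0.67 for other niche factors, 0.66 for feedback inhibitors and 0.65 for bile duct markers. Their permutation p ran from 0.033 to 0.038 (adjusted 0.25 to 0.26). In the same order r was 0.76, 0.75, 0.78 and 0.66 after quantile normalization, and 0.04, 0.57, 0.47 and 0.02 without the narrower arrays. Against the erythroid markers Epo went in the opposite direction (r = -0.59, permutation p = 0.048, adjusted 0.30). There r was -0.57 after quantile normalization and 0.12 without the narrower arrays. The Epo signal lay within the range of the silent genes. The mean of the hypoxia genes was highest on double-knockout replicate 4, at 9.86, and lowest on double-knockout replicate 5, at 9.47, the highest and lowest arrays for Epo. Double-knockout replicate 5 had the narrowest interquartile range, 2.77, and was the lowest array for several other list means. Among these were the hepatocyte (13.21), sinusoidal endothelium (9.37) and macrophage markers (9.25). The erythroid mean was not low there, at 11.63.

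**Figure D4:**
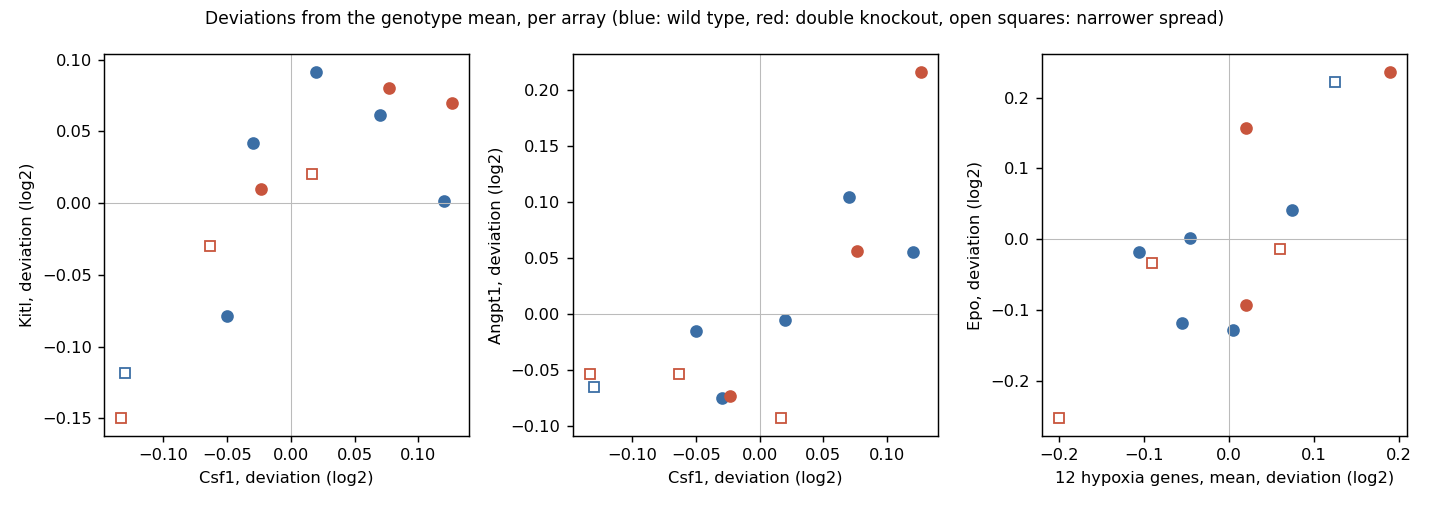
Deviation from the genotype mean (log2) of Kitl and Angpt1 against Csf1, and of Epo against the mean of 12 hypoxia response genes, 1 point per array (blue wild type, red double knockout, open squares the 4 narrower arrays). Points run upward in each panel (r = 0.80, 0.76 and 0.80), and 3 of the 4 narrower arrays lie below 0 for Csf1.

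For each member the 2 genes of most similar pattern among 19934 others were named by Pearson r of the same deviations, as a description of these 12 arrays. Kitl was closest to Ankrd49 (r = 0.94) and Thoc1 (0.94), and Csf1 to P2ry12 (0.96) and Rnf146 (0.93). Flt3l was closest to Npr1 (0.94) and Alkbh6 (0.93), and Cxcl12 to Smtnl2 (0.93) and Heg1 (0.92). Vcam1 was closest to Atxn7l3b (0.89) and Tmem131l (0.89), and Angpt1 to Arhgap12 (0.90) and Ndufaf3 (0.90). Epo was closest to Cxxc5 (0.90) and Zbtb18 (0.88). Il7 was closest to Gzmn (0.93) and to Olfr508 (0.93), an olfactory receptor gene of the floor set. Of these 16 genes, 6 remained among the 2 most similar after quantile normalization and 0 without the narrower arrays.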

How the data were processed

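Total RNA of the 12 livers (250 ng each, per the labels' protocols) was hybridised to 1-colour Affymetrix arrays. The authors deposited log2 values per probe set, processed with Affymetrix Expression Console per the submitters' processing notes. The sources used here do not give its version, summarisation or background correction. The log2 scale was read from the deposited values, which reach 14.5. Probe sets that name 1 gene in the platform table (21780 of 28815) were used, with symbols updated by gene ID through a GRCm38.p6 table (21689 matched). For each of 19935 genes the probe set of highest mean was taken.

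Genotypes were compared with limma 3.58.1 in R 4.3.3 over all genes. Tested on simulated data for this comparison, the fit recovered 76% of 50 genes changed 1.25-fold and 94% changed 1.5-fold among 19935 genes, with 17 false calls beside the 200 genes changed in all. Benjamini-Hochberg adjustment is less strict when many genes change, and only 3 genes passed in the real data. These shares therefore do not give the recovery for the members. Correlations used deviations from genotype means, with an exact permutation test over all orderings of the arrays within genotype. They had been planned as a description, and the p-values were added. The number of arrays limits the precision.

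The named genes were both deleted genes, all members, all receptors, the 3 genes of smallest p of each other role list and the 2 genes most like each member. The members, lists and tests were chosen with earlier results of these data known. Alternatives were quantile normalization, median centring, leaving out dim genes, a trended robust prior, arrayWeights, a block for the replicate number, other probe set choices, an exact permutation test, and leaving out the narrower arrays or each array in turn.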

Additional observations from a re-analysis of the deposited data

Results flagged for a closer look

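A single array stood far from the other 5 of its genotype in 2 of 132 groups of 6 arrays looked at, where chance gives about 1 in 20. Both were means of marker lists on wild-type replicate 6, and none was a niche factor gene. The mean of 7 erythroid markers was 11.27 there, against 11.51 to 11.64 on the other wild-type arrays. The mean of 6 intestine markers was 8.16 there, against 6.91 to 7.23 on the others. Epo and Il7 had their highest wild-type values, 6.42 and 5.44, and Csf1, Kitl and Vcam1 their lowest, 7.86, 8.04 and 11.05, on the same array. Flt3l, Cxcl12 and Angpt1 had neither there. This array was also among the narrower arrays. Correlations of the erythroid and intestine markers with the members were among the 192 relations above, of which 0 passed adjustment. The part of these markers in the values on this array was not tested otherwise.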

How the results depend on the processing

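No niche factor gene passed the limma test under any alternative run, and 0 did with the replicate number as a block, where 2 genes in all passed. Under the filter on dim genes 5 of the 8 members were tested. The signs of small differences were less stable. Without the 4 narrower arrays the difference turned to 0.067 for Cxcl12, 0.012 for Csf1, 0.063 for Csf1r, 0.021 for Epas1, 0.095 for Macroh2a2, -0.12 for Epor and -0.053 for Itga4. With 1 array left out at a time the differences ran from -0.049 to 0.0038 for Csf1, from -0.044 to 0.021 for Il7, from -0.052 to 0.077 for Epor, from -0.062 to 0.0098 for Csf1r, from -0.051 to 0.0049 for Bcl2l1 and from -0.17 to 0.0064 for Macroh2a2. The cause was not tested. Leaving out 1 array gave 2 to 6 genes past the threshold in all, and 0 or 1 in the role and marker lists, the 1 being Cd79a without double-knockout replicate 2. The count of member pairs with a passing correlation, 3 of 28, was 0 after quantile normalization, 0 without the narrower arrays and 0 to 4 without 1 array, alternatives chosen after seeing the data. Same-numbered arrays of the 2 genotypes had deviations that correlated from -0.18 to 0.49, over 0.1 in 5 of 6, and 7 of 12 arrays correlated best with their own number, a hint of pairing in the data. Since not every pair was over 0.1, the numbers were not taken as pairs. The permutation p-values, those of the 3 passing member pairs among them, take no account of pairing. The block changed no call of a member, but 997 genes had unadjusted limma p under 0.05 with it, against 783 without. With the block Il7r had a limma p of 0.0010 unadjusted and 0.67 adjusted. Signal over background was not measured, which limits Il7, Angpt1 and Epo most.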
